A study of Mus musculus with 16 samples.

Results

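Among Pdgfrb-expressing cells sorted from young mouse fat, 984 genes set mesothelial-like cells and smooth muscle cells together apart from both populations of adipose progenitors. A gene was taken when every library of mesothelial-like and smooth muscle cells lay above, or every one below, every progenitor library, and when the nearest group means on log2(value + 1) were at least 2-fold apart. That distance is called the gap here and is given in log2 units. Of the 27179 genes in the table, 838 (3.08%) lay higher in mesothelial-like and smooth muscle cells and 146 (0.537%) lay lower. With quantile scaling of the libraries the counts were 542 and 283, so the balance of the directions depends on the scaling. Without the 2-fold limit, 5.28% of genes lay higher and 3.63% lower with no overlap between libraries. These values chose the genes, so the difference of the shared genes from the progenitors is described without a test. Tests are given for other contrasts: mesothelial-like against smooth muscle cells, and one progenitor population against the other. The choice compares the nearest group means, so it is not fully separate from these contrasts either. Calls against the progenitors are counted over all genes and over gene lists. All 797 higher and 144 lower shared genes tested are among those calls, which therefore lend them no support.

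The RNA came from C57BL/6 mice at postnatal day 7, from their epididymal white fat, and 4 sub-populations of Pdgfrb+ cells were isolated by flow cytometry. They were adipocyte precursor cells (APCs), progenitors of fibro-inflammatory type (FIPs), mesothelial-like cells (MLCs) and smooth muscle cells (SMCs), with 4 libraries each, 16 in all. All groups share strain, age, depot and the selection for Pdgfrb, and the labels name no other genotype and no treatment. The labels name neither the surface markers that part the 4 sub-populations nor the number of animals behind a library. They also do not say whether libraries of a group are separate sorts, so the p-values take their spread from these libraries alone, and that spread may be technical. Values are normalized counts, that is, reads per gene divided by 1 factor per library.

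Mesothelium is the sheet of flat epithelial cells that covers the fat pad and the body cavity, and it carries keratins, uroplakins, tight junctions and microvilli. Smooth muscle cells and pericytes, the mural cells of vessels, are known for actin, smooth muscle myosin and a basement membrane. Adipose progenitors are fibroblast-like cells that either take up the adipocyte programme led by Pparg or secrete matrix and inflammatory mediators.

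Depth per library was 9.20 to 27.5 M reads (median 21.6 M), and SMCs replicate 3 (9.20 M) and APCs replicate 4 (11.2 M) were the shallowest. Of 9 mesothelial markers, the summed level was 126881 to 130688 in MLCs, 10344 to 15635 in SMCs, 4080 to 4617 in APCs and 3158 to 3715 in FIPs. The summed level of 9 smooth muscle markers was 11127 to 16092 in SMCs, 9331 to 10185 in MLCs, 5339 to 8093 in APCs and 4854 to 5509 in FIPs. The wider list of 28 contractile genes summed to a mean of 75590.4 in SMCs and 75732 in MLCs. The 6 pericyte markers summed to 4225 to 4971 in SMCs, below the 5134 to 6573 of APCs. The 7 fibroblast and progenitor markers summed to 1.05 to 1.28 M in SMCs, above the 0.607 to 0.639 M in APCs, 0.853 to 0.933 M in FIPs and 0.448 to 0.486 M in MLCs. Col1a1, one of these and a general matrix gene, averaged 977594 in SMCs, 438200 in APCs and 637191 in FIPs. Pdgfra, another, averaged 23838 in SMCs, 20555 in APCs, 22966 in FIPs and 471 in MLCs. The means of Dpt, Lum and Dcn were instead lower in SMCs than in APCs and FIPs. For Dcn the difference from APCs was small, 92662 (SD 9767) in SMCs against 95993 (SD 15529). Pi16 and Dpp4 in SMCs lay above APCs and below FIPs. The sum therefore does not rank SMCs highest for the fibroblast markers in general. Pdgfrb, the gene of the sort, averaged 457 in MLCs against 4717 in APCs, 2862 in FIPs and 3787 in SMCs. The MLC libraries thus have the markers of their label. The SMC libraries had the highest sum of the 9 smooth muscle markers, but no higher contractile sum than MLCs. Their pericyte sum was below that of APCs through Notch3, and their fibroblast sum was the highest through Col1a1. In such bulk samples, fewer cells of a type and less RNA per cell cannot be told apart.

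Promoter stretches of 8 shared genes are shown because a motif of interest lies upstream of a start that RefSeq gives for them. The sequences are RefSeq's for GRCm38.p6, read 5′ to 3′ on the strand of the gene, and capitals mark the matches. For 5 genes higher in MLCs and SMCs the capitals mark GGAATG or its reverse complement CATTCC, the core bound by TEAD factors, the DNA-binding partners of the YAP coactivator. The stretches are Upk3b at chr5:136038246-136038285 (+), Lrrn4 at chr2:132881028-132881083 (-), Pdlim3 at chr8:45885261-45885486 (+), Crim1 at chr17:78200144-78200199 (+) and Ajuba at chr14:54577795-54577872 (-). The stretch of Lrrn4 lies inside the span of the gene (chr2:132866686-132894010), upstream of a start within it.
Upk3b: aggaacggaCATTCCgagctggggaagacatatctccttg
Lrrn4: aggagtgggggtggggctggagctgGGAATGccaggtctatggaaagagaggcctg
Pdlim3: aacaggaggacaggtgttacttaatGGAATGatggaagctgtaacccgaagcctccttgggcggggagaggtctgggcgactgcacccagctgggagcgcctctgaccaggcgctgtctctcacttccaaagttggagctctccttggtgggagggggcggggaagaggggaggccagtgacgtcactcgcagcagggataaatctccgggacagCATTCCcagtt
Crim1: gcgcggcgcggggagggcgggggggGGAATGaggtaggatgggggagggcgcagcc
Ajuba: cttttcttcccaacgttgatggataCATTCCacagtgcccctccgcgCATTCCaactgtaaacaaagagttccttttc

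For 3 genes lower in MLCs and SMCs the capitals mark matches to the NF-kB motif, the site of the factor that drives many cytokine genes. Il6 lies at chr5:30013045-30013104 (+), Tnfaip2 at chr12:111442612-111442660 (+) and Steap4 at chr5:7960222-7960280 (+). The stretch of Tnfaip2 also lies inside the span of its gene (chr12:111442450-111455018), upstream of a start within it.
Il6: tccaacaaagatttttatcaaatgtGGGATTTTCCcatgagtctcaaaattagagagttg
Tnfaip2: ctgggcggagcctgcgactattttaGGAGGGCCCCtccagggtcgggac
Steap4: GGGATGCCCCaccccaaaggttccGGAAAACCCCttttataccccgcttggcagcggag

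These matches describe letters and not bound sites, and 611 higher and 105 lower genes had a promoter in the RefSeq table. Over both strands and with 250 bases before and 50 after each start, the TEAD core GGAATG was in 17.9% of 792 promoters of higher genes, in 11.6% of 129 promoters of lower genes and in 14.7% of all 32851 promoters. The NF-kB motif, added after the data were seen, was in 13.6% and 14.0% of these promoters and in 8.46% of all. The CArG box of serum response factor, a regulator of contractile genes, was in 1.26% and 1.55% against 1.63% of all. The GC box GGGCGG was in 53.4% and 48.1% against 35.7%, the E-box CANNTG in 76.3% and 69.0% against 72.3%, AP-1 TGANTCA in 7.07% and 11.6% against 7.81%, and RBPJ TGGGAA in 26.8% and 25.6% against 25.6%. The GC box and NF-kB matches were thus more frequent in both directions than over all promoters, and the CArG box in neither. All promoters were not limited to the 15024 genes tested, so they include genes with few or no reads here. No comparison with promoters of tested genes alone was made. No test was made of these shares, and the letters of the GC-rich motifs can overlap.

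The higher genes had a median gap of 1.93 and a largest gap of 6.31, with 392 genes at 4-fold or more and 152 at 8-fold or more. Among them 784 were protein-coding and 28 were long non-coding RNAs in the 816 that matched RefSeq. The lower genes had a median gap of 1.46 and a largest of 3.81, with 37 genes at 4-fold or more and 8 at 8-fold or more. Just inside the 2-fold limit on the higher side were Dnaaf3, Tln2 and Ephb6, with gaps of 1.001, 1.003 and 1.006, and just outside were Tnfrsf10b, Abca3 and Cep170b, with 0.996, 0.995 and 0.995. On the lower side Engase, Lifr and Flywch2 stood just inside at 1.002, 1.003 and 1.003, and Sox13, Rnd2 and Lamb1 just outside at 0.997, 0.997 and 0.996.

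**Figure D1:**
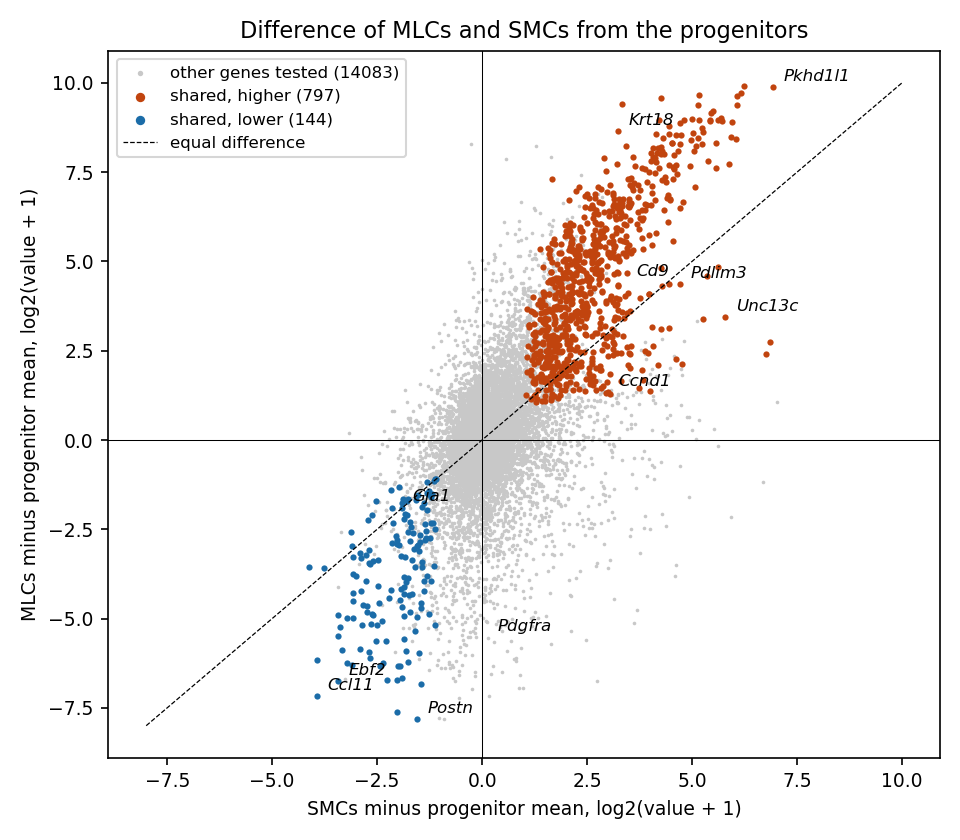
Difference of SMCs (x axis) and of MLCs (y axis) from the mean of APCs and FIPs, in log2(value + 1), for the 15024 genes tested, with 797 shared higher genes and 144 shared lower genes coloured; the dashed line marks an equal difference in both. Most higher genes lie above the line, with MLCs further from the progenitors than SMCs, and Unc13c and Ccnd1 lie below it.

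Genes of the mesothelium were prominent among the largest gaps. Of 20 mesothelial genes in the table, 14 were shared and higher and 0 lower, and of 32 keratin and epithelial junction genes 14 were higher and 0 lower. The same rule took 3.08% of all genes as higher and 0.537% as lower. By limma calls against the progenitors, 18 of 19 mesothelial and 26 of 28 keratin and junction genes tested were higher. These calls include shared genes, which were chosen on the same values, and Ezr, Krt7 and Krt19 count in both lists. Over all 15024 genes tested the share called higher in MLCs and SMCs was 14.8% and lower 7.20%. The median difference of the mesothelial list from the progenitors was 6.89 on the log2 scale against 0.00 over all genes. The named mesothelial members include Msln (mesothelin), Muc16, Upk1b and Upk3b (uroplakins), Krt7 and Krt19 (keratins), Bnc1 (a zinc finger factor of epithelia) and Aldh1a2 (a retinoic acid synthase).

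Pkhd1l1, a large membrane protein related to fibrocystin, had the largest gap. Its normalized counts were 33469.8, 27705, 34041 and 34179 in the MLC libraries and 4925, 3598, 5946 and 2814 in the SMC libraries. In APCs they were 24.5, 16.1, 28.6 and 17.3, and in FIPs 53.4, 28.7, 62.1 and 73.5. Every SMC library stood far above every progenitor library and far below every MLC library.

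Upk3b, the uroplakin used as a mesothelial marker, read 39960.4, 41414, 40503 and 40328 in MLCs and 4022, 3278, 4311 and 2503 in SMCs. It read 32.1, 21.1, 30.7 and 46.7 in APCs and 73.2, 64.7, 91.7 and 94.3 in FIPs. Krt19, a simple-epithelial keratin, averaged 17761 ± 709 in MLCs and 1392 ± 278 in SMCs, against 21.9 ± 22.9 in APCs and 60.0 ± 10.3 in FIPs (mean ± SD, n = 4 libraries each). For both genes the SMC values fell between the progenitors and the MLCs and overlapped with neither.

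Podxl, a sialomucin of apical membranes, averaged 28413 ± 1272 in MLCs and 2996 ± 957 in SMCs, and 38.6 ± 9.37 and 78.1 ± 9.98 in APCs and FIPs (SD, n = 4). Cgn, the tight junction protein cingulin, averaged 2795 ± 179.7, 301 ± 52.6, 3.86 ± 2.98 and 7.73 ± 2.23 in the same order. Other genes with means of at least 100 in both MLCs and SMCs and gaps of 4.80 or more were the water channel gene Aqp5 (5.84), Upk1b (5.72), Tmem151a (5.70), Lrrn4 (5.49), the retinol dehydrogenase Dhrs9 (5.45), the receptor phosphatase Ptprz1 (5.38), the serotonin transporter Slc6a4 (5.34), Zbtb8b (5.01), the endocytic receptor Lrp2 (4.95), Sh3tc2 (4.87) and Bnc1 (4.80). In the progenitors some of these genes had few reads, such as Aqp5, which averaged 0.642 and 0.935 in APCs and FIPs. All of these genes were called higher in MLCs than in SMCs.

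**Figure D2:**
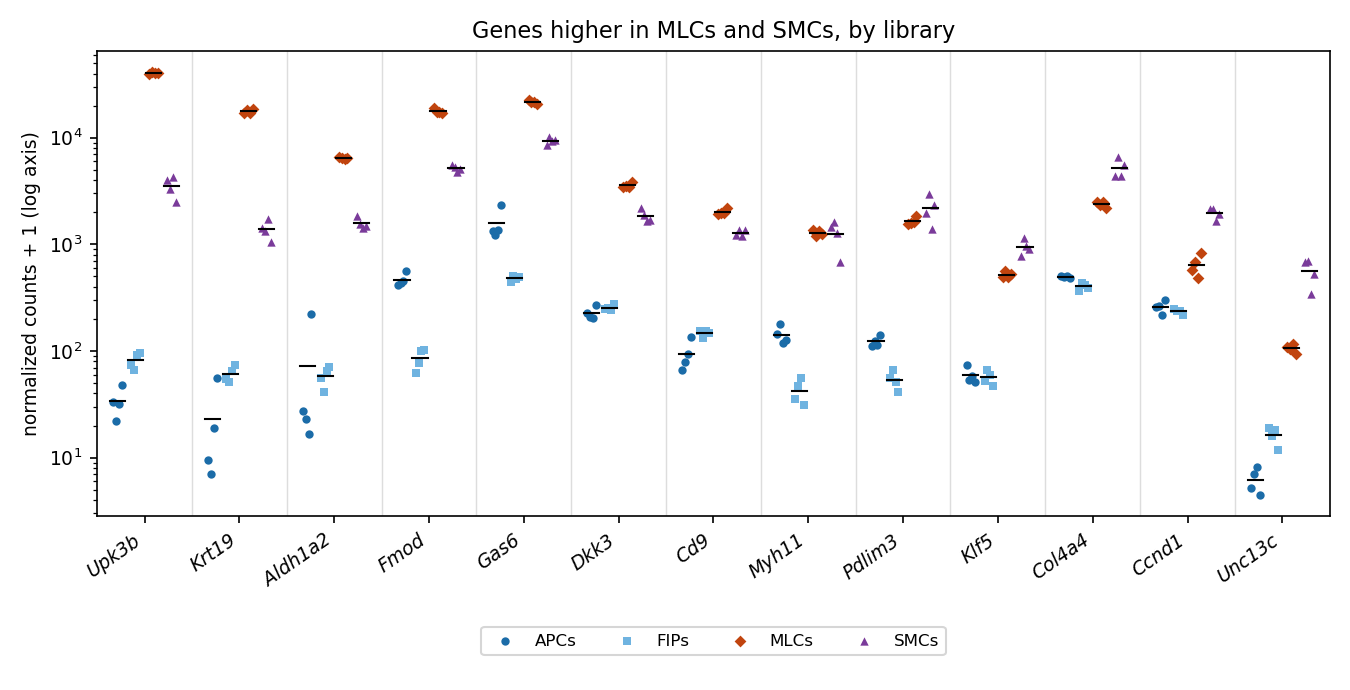
Normalized counts plus 1 (log axis) of 13 genes higher in MLCs and SMCs, 1 point per library, 4 libraries in each of APCs, FIPs, MLCs and SMCs; bars mark group means. SMCs lie between progenitors and MLCs for Upk3b, Krt19 and Aldh1a2, beside the MLCs for Myh11 and Pdlim3, and above them for Col4a4, Ccnd1 and Unc13c.

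MLCs and SMCs differed from each other within the shared genes. The filter on low values was passed by 797 higher genes (5.3% of the genes tested) and not by 41. Of the 797, 535 (67.1%) were called higher in MLCs and 33 (4.14%) higher in SMCs, where a call is a limma adjusted p under 0.05 with at least a 2-fold difference. Over all genes tested these calls were 14.4% and 13.5%. The remaining 229 were not called. The mean in SMCs was a median of 29.0% of that in MLCs, with quartiles of 14.0% and 72.6% and a range from 1.57% to 2157%. On the way from the nearer progenitor to the MLCs, the median gene was 23.9% of the distance along in SMCs, on the linear scale.

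By that ratio 128 higher genes (15.3%) had an SMC mean under 10% of the MLC mean, 418 (49.9%) lay between 10% and 50%, 250 (29.8%) between 50% and 200%, and 42 (5.01%) above 200%. Of the 8 shared mesothelial markers, 7 had an SMC mean under 10% of the MLC mean. Krt18 in SMCs was 2.42% of its MLC mean, Krt8 3.69%, Msln 4.45%, Krt19 7.84%, Upk1b 7.96%, Upk3b 8.70%, Lrrn4 8.77% and Nkain4 33.1%. Wt1, the ninth marker and not a shared gene, was at 25.5%. Krt8, a keratin of simple epithelia, read 5290.0, 5361, 5189 and 6207 in MLCs and 196, 207, 248 and 163 in SMCs, and its log2 difference between them was 4.76 (SE 0.44, limma adjusted p = 1.2e-08).

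The 4 SMC libraries did not carry these genes equally. Set against the SMC mean, the genes under 10% stood at a median of 101%, 96.9%, 122% and 74.9% in SMCs replicates 1 to 4, and the 9 mesothelial markers, 8 of them shared genes themselves, at 103%, 96.2%, 122% and 76.0%. The genes between 10% and 50% stood at 104%, 96.4%, 110% and 83.0%. Those between 50% and 200% stood at 102%, 106%, 95.9% and 92.1%, and those above 200% at 113%, 113%, 83.5% and 90.6%. The libraries were therefore ordered alike for the mesothelial markers and for the genes with low SMC to MLC ratios, and otherwise for the genes that SMCs carry at the level of MLCs or above. Because 7 of these markers are themselves among the genes under 10%, the like order is partly a set compared with itself. SMCs replicate 3, the highest for both, was also the shallowest library (9.20 M reads). The part of the mesothelial markers in the result was not tested.

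**Figure D3:**
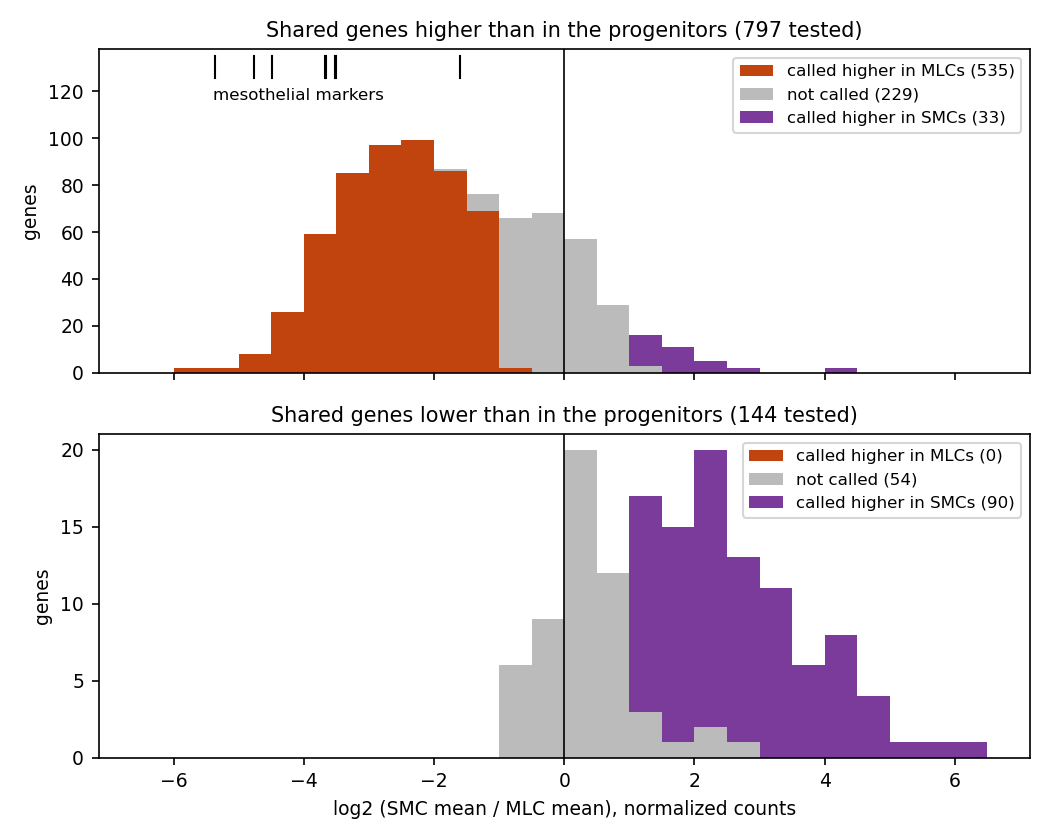
Number of tested shared genes by log2 ratio of the SMC mean to the MLC mean, for genes higher (top, 797) and lower (bottom, 144) than in the progenitors, coloured by the call between MLCs and SMCs; ticks at the top mark 8 mesothelial markers. The higher genes lie mostly to the left of 0, with SMCs below MLCs, and the lower genes mostly to the right.

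Some contractile genes were shared as well. Of 28 smooth muscle genes in the table, 6 were shared and higher and 0 lower (Actn1, Myh11, Myocd, Pdlim3, Synpo2 and Tpm2). The list had a median difference of 1.20 from the progenitors. Of the 26 genes tested, 14 were called higher and 1 lower, against 14.8% and 7.20% over all genes tested. These calls include shared genes, which were chosen on the same values. Within the list 3 genes were called higher in MLCs and 9 in SMCs, but of the 6 shared ones 1 was called higher in MLCs and 0 in SMCs. That gene was Synpo2, an actin-binding protein of the Z-line, with 631 ± 42.9 in MLCs and 179 ± 69.1 in SMCs, against 28.6 ± 14.7 in APCs and 29.5 ± 4.34 in FIPs (SD, n = 4). The level of Myh11, the smooth muscle myosin heavy chain, was 1377, 1193, 1325 and 1256 in MLCs and 1446, 1633, 1289.5 and 681 in SMCs. In APCs it was 143, 176, 117 and 125 and in FIPs 34.6, 46.2, 54.4 and 29.9. MLCs and SMCs overlapped, with a log2 difference of 0.10 (SE 0.22, limma adjusted p = 0.70), while SMCs replicate 4 was the lowest of the SMC libraries.

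Pdlim3, an actinin-binding LIM protein of the Z-line and stress fibres, read 1550.0, 1598, 1612 and 1825 in MLCs and 1963, 2987, 1407 and 2329.7 in SMCs, against 112, 124, 113 and 140.1 in APCs and 54.4, 64.7, 49.6 and 39.9 in FIPs. The SMC libraries spread on both sides of the MLCs (log2 difference -0.35, SE 0.17, limma adjusted p = 0.081), and its promoter is among the stretches printed above. Actn1, the non-muscle alpha-actinin, averaged 4327 ± 188 in MLCs and 2668 ± 151 in SMCs, against 1075 ± 34.0 in APCs and 219.6 ± 7.94 in FIPs (SD, n = 4). Tpm2, beta-tropomyosin, averaged 2312 ± 79.1, 1608 ± 251, 645 ± 163 and 517 ± 22.5 in the same order.

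Acta2, smooth muscle actin, was not among the shared genes because of 1 library. It read 1143, 1627, 1604 and 1338 in MLCs and 5235, 4169.9, 5858 and 2885 in SMCs, against 221, 218, 156 and 2388 in APCs and 237, 258, 239.6 and 211 in FIPs. APCs replicate 4, 1 of the 2 shallowest libraries, stood above every MLC library, and without it the gap was 2.58. Leaving out that library gave 886 higher genes, of which 805 were among the 838, and Acta2 and Cnn1 then entered. Cspg4, a pericyte proteoglycan, and Ptpn14, a phosphatase that binds YAP, then dropped out.

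Genes of the cell surface and the membrane cytoskeleton were shared in part. Of 22 tetraspanins 6 were higher and 1 (Tspan12) lower. Cd9, a tetraspanin that organises membrane complexes, read 1923, 1950.1, 1947 and 2186 in MLCs and 1229.8, 1364, 1196 and 1358 in SMCs, against 65.1, 77.5, 93.6 and 135 in APCs and 152, 132, 154 and 145 in FIPs. The log2 difference between MLCs and SMCs was 0.64 (SE 0.15, limma adjusted p = 7.9e-04), under the 2-fold limit of a call. Because the surface markers of the sort are not given, a gate on Cd9 and a difference between the cells cannot be told apart. Of 32 genes of actin dynamics and membrane cytoskeleton 4 were higher and 0 lower, namely Anxa8 (an annexin), Ezr (the microvillar linker ezrin) and the galectins Lgals3 and Lgals7.

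Of 34 integrins and laminins 9 were higher and 0 lower, where the rule took 3.08% and 0.537% of all genes. Of the 33 tested, shared genes included, 13 were called higher and 11 lower against the progenitors. Over all genes tested 14.8% were called higher and 7.20% lower. The list summed to means of 155990 in MLCs and 198167 in SMCs, against 261871 in APCs and 439323 in FIPs. Lamc3, a laminin gamma chain, averaged 1871 ± 97.5 in MLCs and 644 ± 342 in SMCs, and 39.1 ± 6.63 and 18.2 ± 4.44 in APCs and FIPs (SD, n = 4), with SMCs replicate 2 highest among SMCs. Itga3, a laminin receptor, averaged 5230.4 ± 173 in MLCs and 400.0 ± 95.8 in SMCs. Of 46 cadherins and adhesion genes 9 were higher and 2 lower (Nectin4 and Vcam1), among them the laminin receptor Bcam, 8719 ± 201 in MLCs and 641 ± 108 in SMCs, and Esam, an adhesion molecule of endothelial junctions. Esam and Kdr, the main VEGF receptor, are endothelial markers as well, and they averaged 2444 and 2485 in MLCs and 169 and 826 in SMCs. The endothelial marker Pecam1 averaged 102, 87.8, 102 and 30.6 in APCs, FIPs, MLCs and SMCs. Cdh5, the cadherin of endothelial junctions, averaged 124, 90.9, 129 and 1698 in the same order, so that SMCs were high for Cdh5 and low for Pecam1. The 6 endothelial markers summed to 2314 to 3180 in MLCs, 3454 to 4308 in SMCs, 1029 to 1436 in APCs and 7809 to 8683 in FIPs, and none was at 0 in every library of a group. Single genes carried these sums: Kdr itself 2485 of a mean of 2828 in MLCs, Tek 7827 of 8149 in FIPs, and Cdh5 and Tek 1698 and 1251 of 3855 in SMCs. The part of endothelial transcripts in the levels of Esam and Kdr was not tested. Of 17 endothelial genes 2 were higher and 0 lower, and of 21 pericyte and vasoactive genes 2 were higher (Cspg4 and Gucy1a1) and 1 lower (Vtn).

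Among 32 collagen genes only Col4a3 and Col4a4, chains of a basement membrane collagen, were shared, and both were higher in SMCs than in MLCs. Col4a4 read 4380.1, 6573, 4375 and 5586 in SMCs and 2504, 2353, 2497 and 2178 in MLCs, against 505, 495, 499.7 and 484 in APCs and 365, 435, 415 and 393 in FIPs. The log2 difference, MLCs minus SMCs, was -1.11 (SE 0.10, limma adjusted p = 9.1e-09). Col4a3 averaged 2806 ± 488 in SMCs and 1220.2 ± 121 in MLCs, and 328 ± 13.3 and 344 ± 32.8 in APCs and FIPs (SD, n = 4). Col4a3 (chr1:82586921-82722059) and Col4a4 (chr1:82448419-82587034), on GRCm38, overlap at their starts, where reads counted without strand could belong to either.

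Of 54 proteoglycans and matrix glycoproteins 4 were higher (Ccn2, Fmod, Podn and Thbs4) and 3 lower. Against the progenitors, shared genes included, 8 and 24 of the 54 tested were called higher and lower. Over all genes tested those shares were 14.8% and 7.20%. Fmod, the collagen-binding proteoglycan fibromodulin, read 18978, 17349, 17366 and 16899.6 in MLCs and 5578, 5264, 4817 and 5099 in SMCs, with 417, 437, 449.7 and 557 in APCs and 61.3, 75.8, 98.3 and 101 in FIPs. All 4 groups were apart, and APCs stood above FIPs by 2.47 on the log2 scale (SE 0.12, limma adjusted p = 4.7e-12). Ccn2, the connective tissue growth factor and a YAP target, read 1312, 1999, 1437 and 1553 in SMCs and 679, 728, 958 and 1051 in MLCs, against 201, 151, 243 and 603 in APCs and 159, 130.4, 209 and 249 in FIPs, with APCs replicate 4 close to the lowest MLC library. Of 41 proteases and inhibitors 2 were higher (Serpinb6b and Slpi) and 3 lower (Adamts12, Fap and Mmp27).

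Of 43 Wnt pathway genes 5 were higher and 2 lower. Dkk3, a secreted member of the dickkopf family, read 3479, 3519.6, 3436 and 3842 in MLCs and 2192, 1899, 1638 and 1695 in SMCs, against 227, 206, 202 and 269.8 in APCs and 245, 251, 239.6 and 277 in FIPs. The ligands Wnt9a and Wnt6 averaged 1988 ± 128 and 143 ± 14.7 in MLCs and 1017 ± 84.0 and 184 ± 47.6 in SMCs (SD, n = 4), and the gap of Wnt6 was 1.05. Wnt9a was higher in MLCs than in SMCs by 0.97 on the log2 scale (SE 0.08, limma adjusted p = 6.1e-09), short of a 2-fold call. Wnt6 was not called either (-0.33, SE 0.18, limma adjusted p = 0.10).

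Of 47 BMP and TGF-beta genes 3 were higher, the ligand Bmp4 and the receptor Bmpr1b among them, and 1 lower (Bmper). Bmp4, a ligand, averaged 1473 ± 67.6 in MLCs and 449 ± 78.2 in SMCs, against 50.8 ± 6.87 and 32.4 ± 7.26 in APCs and FIPs (SD, n = 4). Its log2 difference between MLCs and SMCs was 1.73 (SE 0.15, limma adjusted p = 5.2e-09), and every MLC library exceeded every SMC library.

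Of 78 receptor tyrosine kinase genes and ligands 13 were higher and 2 lower. Gas6, the ligand of the TAM receptors, read 22444, 21664, 21772 and 20682 in MLCs and 8574, 10102, 9339 and 9430.1 in SMCs, against 1327, 1236, 1368 and 2345 in APCs and 447, 508, 473 and 491 in FIPs, where APCs replicate 4 stood above the other APCs. Igfbp2, a binding protein of insulin-like growth factors, averaged 3742 ± 414 in MLCs and 571 ± 84.0 in SMCs against 28.5 ± 23.8 and 19.9 ± 20.1 in APCs and FIPs (SD, n = 4). Pdgfa, a PDGF ligand, averaged 501 ± 43.5 in MLCs and 293 ± 43.2 in SMCs. Its log2 difference between them was 0.78 (SE 0.13, limma adjusted p = 4.0e-05), short of a 2-fold call. Of 37 axon guidance genes 5 were higher, led by Plxna4 with 7138 ± 344 in MLCs and 1364 ± 378 in SMCs, and 3 lower.

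Of 22 retinoid genes 4 were higher and 0 lower. Aldh1a2 read 6619, 6453, 6309.9 and 6412 in MLCs and 1848, 1565, 1435 and 1501 in SMCs, and 26.2, 22.2, 15.7 and 221 in APCs and 54.4, 40.7, 64.0 and 69.8 in FIPs, so that the 2 shared populations stood apart from the progenitors even where APCs replicate 4 was high. Of 49 ion channels and transporters 6 were higher and 2 lower. Kcnd3, a voltage-gated potassium channel, averaged 2006 ± 109 in MLCs and 997 ± 166 in SMCs, against 57.3 ± 5.65 and 30.0 ± 6.43 in APCs and FIPs (SD, n = 4). Ano1, a calcium-activated chloride channel, averaged 11495 ± 272 in MLCs and 1389 ± 395 in SMCs.

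Of 30 complement and acute phase genes 4 were higher, C2, Cd59a and Clu among them, and 2 lower (Hp and Ptx3). Csf1r, the receptor for macrophage colony-stimulating factor, read 2108, 2271, 2014 and 2449 in MLCs and 307, 231, 316 and 179.8 in SMCs, and averaged 28.8 ± 8.63 in APCs and 27.2 ± 6.27 in FIPs (SD, n = 4). The macrophage markers Ptprc, Adgre1 and C1qa averaged under 10 in every group, with the 6 macrophage markers summing to 2348 to 2902 in MLCs, 814 to 984 in SMCs, 501 to 1257 in APCs and 487 to 820.0 in FIPs. Csf1r itself is one of the 6 and made up 2210.5 of the mean of 2639 in MLCs, while Cd68 averaged 391 in MLCs, below 593 in SMCs, 734 in APCs and 628 in FIPs. Mbp, the myelin basic protein gene, averaged 3332 ± 62.8 in MLCs and 359.6 ± 104 in SMCs, while the Schwann cell factor Sox10 averaged 1.77 in MLCs and 30.0 in SMCs. The part of Schwann cells in the level of Mbp was not tested. Of 14 macrophage, 8 Schwann and 12 skeletal muscle genes 1, 2 and 1 were higher and 0 lower, and of 10 lymphocyte, 8 erythroid, 10 epididymal epithelium and 9 mature adipocyte genes none was shared. The shares over all genes were 3.08% higher and 0.537% lower.

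Of 80 lineage transcription factors 10 were higher and 0 lower, namely Bnc1, Bnc2, Foxs1, Gata4, Gata5, Hand2, Irx3, Isl1, Klf5 and Sox6. The rule took 3.08% of all genes as higher and 0.537% as lower. Of the 62 factors tested, shared genes included, 23 were called higher and 12 lower against the progenitors. Over all genes tested 14.8% were called higher and 7.20% lower. Klf5, a zinc finger factor, read 784, 1139, 974 and 904 in SMCs and 498, 556, 494 and 525 in MLCs, against 73.5, 52.4, 57.9 and 50.1 in APCs and 51.4, 65.6, 59.2 and 46.3 in FIPs. Its log2 difference, MLCs minus SMCs, was -0.86 (SE 0.14, limma adjusted p = 1.7e-05), short of a 2-fold call. Gata4, a factor of mesoderm and coelomic epithelium, averaged 528 ± 58.7 in MLCs and 136 ± 76.2 in SMCs, against 32.8 ± 7.81 and 4.98 ± 1.66 in APCs and FIPs (SD, n = 4), and its SMC libraries ranged from 53.1 to 233. Sox6 and Bnc2 averaged 3364 ± 167 and 2065 ± 98.5 in MLCs and 329 ± 103 and 1007 ± 109.7 in SMCs. Without APCs replicate 4 the factors Irx2, Pgr, Tbx15, Tbx20 and Tbx5 entered as well. Of 24 YAP and TEAD targets 6 were higher (Ajuba, Ccn2, Crim1, Ptpn14, Tead4 and Wwc1) and 0 lower, with a median difference of 0.21 on the log2 scale. Ajuba and Crim1, which carry TEAD cores in the printed stretches, averaged 1339 ± 70.5 and 5212 ± 144 in MLCs, 522 ± 37.0 and 1220.5 ± 112 in SMCs, and 236 and 549 in APCs.

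**Figure D4:**
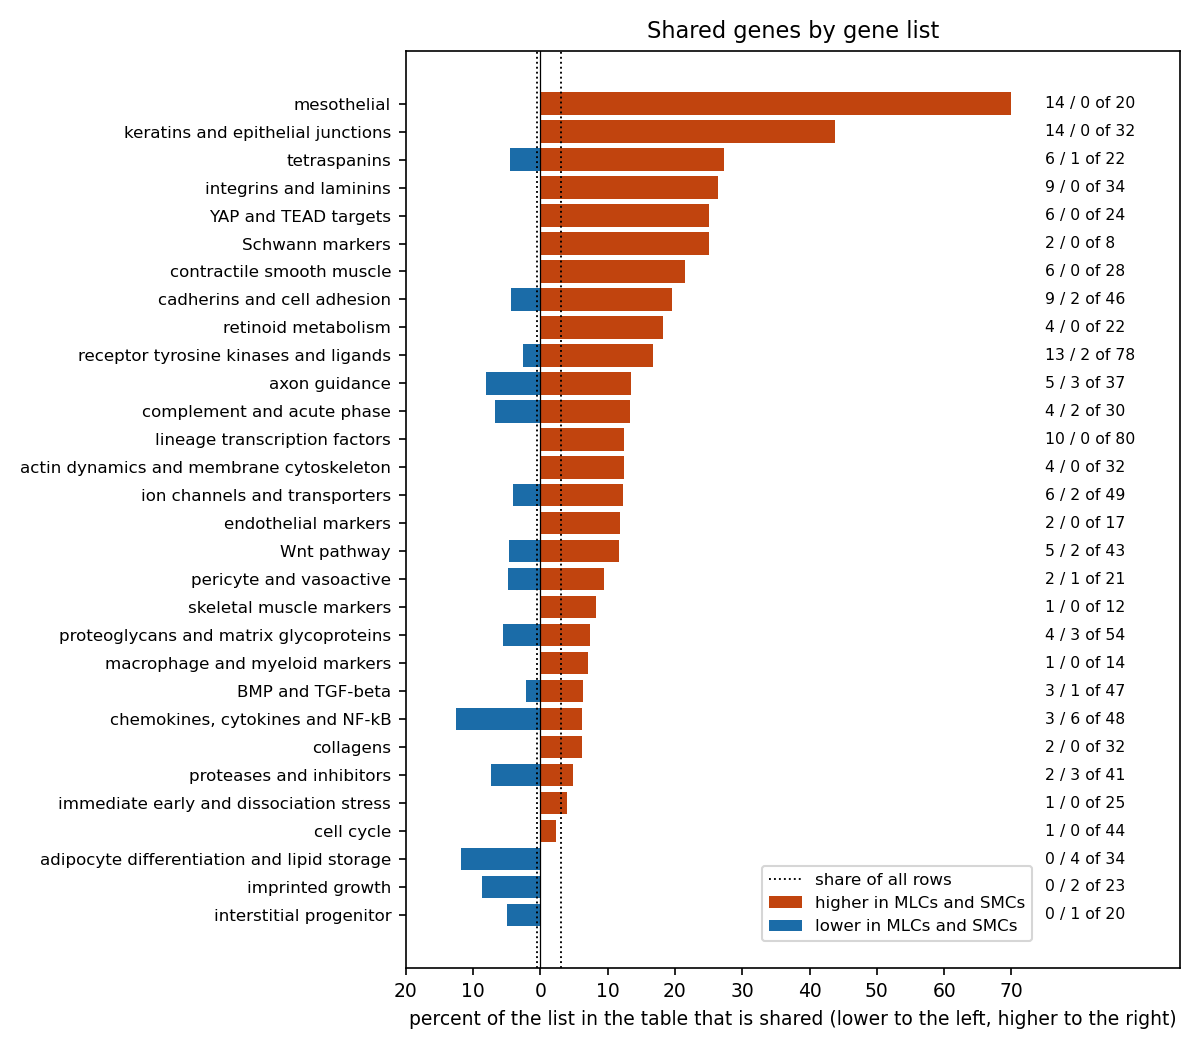
Percent of each gene list in the table that was shared and higher (right) or lower (left) in MLCs and SMCs, with the counts higher / lower of the list's genes in the table at the right; 30 of 37 lists with at least 1 shared gene are drawn, and dotted lines mark the shares over all 27179 rows, 3.08% higher and 0.537% lower. Mesothelial (14 of 20) and keratin and junction genes (14 of 32) stand furthest right, and chemokine, adipocyte and imprinted lists furthest left.

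A smaller set of higher genes was led by SMCs. Unc13c, a protein that primes synaptic vesicles, read 689, 702, 342 and 527 in SMCs and 109, 104, 114 and 93.3 in MLCs, against 4.23, 6.04, 7.15 and 3.46 in APCs and 17.8, 14.8, 17.2 and 10.9 in FIPs. Paqr6, a membrane progestin receptor, averaged 502 ± 68.9 in SMCs and 112 ± 6.19 in MLCs, against 40.5 ± 6.72 and 29.3 ± 2.01 (SD, n = 4). Ccnd1, the G1 cyclin D1, read 2145, 2137, 1655 and 1918 in SMCs and 572, 679, 479 and 823 in MLCs, and 258, 261, 216 and 303 in APCs and 245, 235, 238 and 218 in FIPs. For Ccnd1 the difference, MLCs minus SMCs, was -1.64 on the log2 scale (SE 0.13, limma adjusted p = 1.9e-09), and every SMC library exceeded every MLC library. Kif26a, Adamts20 and Fxyd6, an FXYD regulator of the sodium pump, were the other 3 genes with the largest SMC lead, with SMC means of 398, 404 and 2380.2 and MLC means of 115, 126 and 767. Of 44 cell cycle genes Ccnd1 was the only one shared, and the list otherwise ran the other way between these groups, with 33 genes called higher in MLCs and 2 in SMCs and summed means of 74639 and 41160.5. Of 25 immediate early genes 1 (Fosl1) was shared.

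Within the higher genes the progenitors differed as well. Of 797 tested, 100 (12.5%) were called higher in APCs and 76 (9.54%) higher in FIPs, with 5.22% and 5.20% over all genes tested, and 621 were not called. The count higher in FIPs was 46 with edgeR, and a pseudocount of 8 gave 56 higher in APCs and 27 in FIPs. Gucy1a1, a subunit of the nitric oxide receptor guanylate cyclase, averaged 718 ± 71.8 in APCs and 96.3 ± 4.82 in FIPs, a log2 difference of 2.88 (SE 0.08, limma adjusted p = 3.7e-15), and 2814 ± 159 and 1472 ± 159.7 in MLCs and SMCs. Cav1, the caveolar coat protein, averaged 1974 ± 288 in APCs and 319 ± 26.5 in FIPs, and 45808 ± 1934 in MLCs and 4154 ± 781 in SMCs (SD, n = 4). Fat3, Zfp185 and Itga7 were also among the 6 largest APC leads. Krt8, Miat, Ptk2b, Dmkn, Abca4 and Krt19 had the largest FIP leads, and Krt8 averaged 3.19 ± 2.96 in APCs and 39.0 ± 16.9 in FIPs.

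Ccl11, Ptx3 and Il6 were among the 15 genes named for the largest gaps on the lower side, beside genes of other kinds such as Ebf2, Ret and Bmper. Of 48 chemokine, cytokine and NF-kB genes 6 were lower (Il1r1, Ccl2, Ccl7, Ccl11, Ptges and Il6) and 3 higher (Cxcl13, Il16 and Il34). Of the 43 tested, shared genes included, 13 were called in each direction against the progenitors. Over all genes tested 14.8% were called higher and 7.20% lower. The median difference of the list was 0.20. The median of the list was thus not below that of all genes. Ccl11, the eosinophil attractant eotaxin, had the largest gap of all lower genes, 3.81. It read 2045, 2094, 2777 and 3079.7 in APCs and 1982, 1672, 2468 and 2259.9 in FIPs, and 13.4, 10.99, 19.9 and 15.8 in MLCs and 154, 97.1, 254 and 124 in SMCs. Its neighbours on chromosome 11, Ccl2 and Ccl7, averaged 3736 ± 1038 and 4224 ± 945 in APCs, 6094 ± 1005 and 5414 ± 315 in FIPs, 1445 ± 304 and 1112 ± 180.1 in MLCs, and 857 ± 329 and 790.0 ± 215 in SMCs (SD, n = 4). MLCs lay further below SMCs for Ccl11, but no such order held for Ccl2 or Ccl7.

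Il6, the cytokine whose promoter is printed above, read 1440.2, 1512, 2348 and 2511 in APCs and 4618, 4208, 4265 and 4991 in FIPs, and 89.6, 87.1, 87.0 and 104 in MLCs and 349.6, 234, 508 and 351 in SMCs. Ptx3, a pentraxin of innate immunity, averaged 5737 ± 1245, 10372 ± 1979, 108 ± 23.6 and 553 ± 323 in APCs, FIPs, MLCs and SMCs (SD, n = 4). The hyaluronan-binding Tnfaip6 averaged 10719.6 ± 1305, 26857 ± 1631, 378 ± 58.2 and 1642 ± 611. Both stood lowest in MLCs, and SMCs replicate 3 was the highest SMC library for Il6, Ptx3, Tnfaip6 and Ccl11. Tnfaip2 and Steap4, genes induced by tumour necrosis factor, averaged 683 ± 265 and 890.1 ± 120.1 in MLCs and 2469 ± 461 and 1079.7 ± 230.2 in SMCs, against 15390.3 ± 3438 and 9249 ± 1271 in APCs. Il1r1, the receptor of interleukin 1, averaged 643 ± 44.3 in MLCs and 1536 ± 419.9 in SMCs against 4009.8 ± 222 and 3567 ± 163 in APCs and FIPs.

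**Figure D5:**
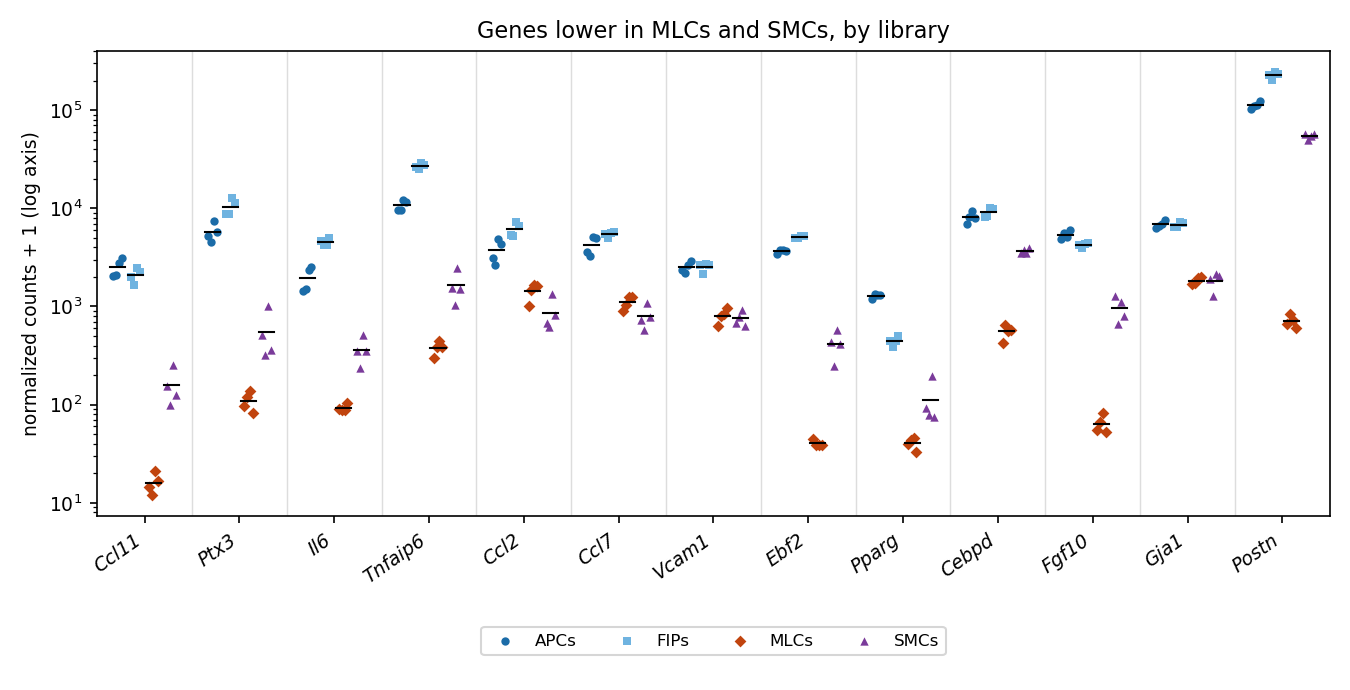
Normalized counts plus 1 (log axis) of 13 genes lower in MLCs and SMCs, 1 point per library, 4 libraries in each of APCs, FIPs, MLCs and SMCs; bars mark group means. For Ccl11, Ebf2, Fgf10 and Postn the MLCs lie below the SMCs, whereas the MLC and SMC libraries overlap for Gja1 and Vcam1.

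Of 34 genes of adipocyte differentiation and lipid storage 4 were lower (Cebpd, Ebf2, Lpl and Pparg) and 0 higher. Of the 33 tested, shared genes included, 12 were called lower and 2 higher against the progenitors, and the median difference was -0.63. Over all genes tested 7.20% were called lower and 14.8% higher. Ebf2, a factor of committed preadipocytes, read 3427, 3788, 3745 and 3643 in APCs and 4989, 4995, 5201 and 5261 in FIPs, and 43.6, 38.1, 37.6 and 37.9 in MLCs and 436, 244, 579 and 414 in SMCs. Pparg, the master regulator of adipogenesis, read 1200.2, 1325, 1293 and 1311 in APCs and 441, 386, 444 and 503 in FIPs, and 38.5, 43.1, 44.99 and 31.7 in MLCs and 91.6, 77.9, 196 and 73.6 in SMCs. Cebpd, an early adipogenic factor, averaged 8059.7 ± 960.4, 9099 ± 1069, 556 ± 93.4 and 3681 ± 211 (SD, n = 4). Lpl, lipoprotein lipase, averaged 55358 ± 12236 in APCs and 28972 ± 5514 in FIPs, and 635 ± 129.9 in MLCs and 14084 ± 1514 in SMCs with a gap of 1.03, close to the 2-fold limit.

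Some growth factors and receptors were lower. Of 78 receptor tyrosine kinase genes and ligands 13 were higher and 2 lower. The counts were 5 and 2 of 43 for the Wnt pathway, and 3 and 1 of 47 for BMP and TGF-beta. More genes were higher than lower over all 27179 genes too, 838 (3.08%) and 146 (0.537%). Fgf10, a ligand of adipose mesenchyme, read 4816, 5598, 5152 and 6018 in APCs and 4234, 3909.7, 4332 and 4407 in FIPs, and 54.5, 65.1, 80.4 and 51.1 in MLCs and 1289.8, 657, 1097 and 795 in SMCs. Ret, a receptor tyrosine kinase, averaged 334 ± 103, 296 ± 46.1, 8.10 ± 3.15 and 52.0 ± 23.6 (SD, n = 4). Bmper, a BMP-binding protein, averaged 7396 ± 881, 3347 ± 152, 356 ± 33.2 and 630.0 ± 128. Lgr4, a receptor of R-spondins, averaged 1762 ± 85.6, 1198 ± 52.4, 495 ± 39.0 and 504 ± 47.6, and Wnt11, a ligand, 315 ± 50.5, 819 ± 75.6, 109.5 ± 17.3 and 141 ± 34.2. Neither Lgr4 nor Wnt11 was called between MLCs and SMCs.

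Among lower matrix and imprinted genes, some had SMCs far above MLCs. Postn, the matrix protein periostin, averaged 112346 ± 8908 in APCs and 228324 ± 18162 in FIPs, against 54572 ± 3890.4 in SMCs and 709 ± 103 in MLCs (SD, n = 4). The log2 difference, MLCs minus SMCs, was -6.27 (SE 0.10, limma adjusted p = 2.5e-20). Of 23 imprinted growth genes 2 were lower (H19 and Mest). Of the 22 tested, shared genes included, 8 were called lower and 1 higher, against 7.20% and 14.8% over all genes tested. H19, an imprinted long non-coding RNA, averaged 100067 ± 5454, 244757 ± 8449, 807 ± 186 and 38316 ± 2226, and Mest 23426 ± 2106, 25796 ± 1267, 2533 ± 146 and 6843 ± 546.

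In some lower genes MLCs and SMCs stood together. Gja1, the gap junction protein connexin 43, read 1704, 1727, 1943 and 1974 in MLCs and 1890.0, 1286, 2141 and 2027 in SMCs, against 6322, 6579.8, 6943 and 7569 in APCs and 6473, 6385, 7187 and 7093 in FIPs. The log2 difference between MLCs and SMCs was 0.02 (SE 0.11, limma adjusted p = 0.86). Vcam1, an adhesion molecule for leukocytes, averaged 806 ± 138 in MLCs and 754 ± 126 in SMCs, against 2535 ± 323 and 2545 ± 278. Thbs1, thrombospondin 1, averaged 7026 ± 897 and 8424 ± 3156 against 24867 ± 3710.0 and 49935 ± 5963, and Pcdh20, a protocadherin, 113 ± 16.2 and 79.1 ± 20.7 against 834 ± 99.9 and 2193 ± 154.

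The filter was passed by 144 lower genes (0.958% of the genes tested) and not by 2. Of the 144, 90 (62.5%) were called higher in SMCs than in MLCs and 0 higher in MLCs, with 54 not called; edgeR gave 0 as well, and 7 had an unadjusted limma p under 0.05 in that direction. Over all genes tested the shares were 13.5% and 14.4%. SMCs stood at a median of 36.1% of the nearer progenitor and MLCs at 8.87%, and 53 genes were under 5% in MLCs. The sharing rule itself keeps SMCs at least about 2-fold under the nearer progenitor. Set against the SMC mean the lower genes stood at a median of 101%, 80.0%, 112% and 98.9% in SMCs replicates 1 to 4. Between the progenitors 19 lower genes (13.2%) were called higher in APCs and 22 (15.3%) higher in FIPs. Over all genes tested the shares between the progenitors were 5.22% and 5.20%. The lower genes with the largest leads were Spon1, Trarg1, Cd38, Apln, Pparg and Rasl12 for APCs. For FIPs they were Scg3, Nell1, Adra1b, Engase, Lmo2 and Fhdc1.

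Some lists had no shared gene. Notch (16 genes), hedgehog (14) and glycolysis (20) had 0 higher and 0 lower, and of 20 interstitial progenitor genes 1 (Fap) was lower. Over all genes 3.08% were higher and 0.537% lower, so a count of 0 in lists this short sets none of them apart. Against the progenitors, 4 and 3 of 15 Notch genes tested were called higher and lower. For hedgehog the calls were 5 and 1 of 12, and for glycolysis 2 and 1 of 20. Over all genes tested 14.8% were called higher and 7.20% lower. The median difference of the hedgehog list from the progenitors was 0.70 on the log2 scale. Some shared genes lay beside another of the same direction on the chromosome, such as Krt8 and Krt18, Kit and Kdr, and Ereg and Areg among the higher genes, and Ccl2, Ccl7 and Ccl11 among the lower. Neighbouring genes can share reads where their spans meet.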

How the data were processed

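The table that the authors deposited holds normalized signal values (reads of each gene over a factor set per library) for 27179 Entrez genes and 16 libraries. DESeq2 1.6.3, featureCounts 1.4.6, HISAT2 2.0.1 and Trim Galore 0.4.1 are named in the submitters' processing notes, with the builds GRCm38 and mm10 and without role or order. No source used here gives the strand setting or annotation, so overlapping, antisense and near-identical genes are uncertain. Columns headed SMLCs were taken as SMCs replicates 1 to 4. Values were whole multiples of a step per library within 0.01, which gave the depths. At the median depth of 21.6 M a value of 10 rests on about as many reads. The 1275 genes without a symbol held 0.0812% to 0.135% of a library's values.

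The sharing rule was applied to all 27179 genes on log2(value + 1). Genes with a value of at least 10 in at least 4 libraries (15024) were tested with limma 3.58.1 in R 4.3.3 (eBayes with trend, 4 groups, no covariate, two-sided), with Benjamini-Hochberg adjustment over all tested genes; a call needs an adjusted p under 0.05 and a 2-fold difference. The pseudocount understates fold changes of low genes. The scripts were tested on simulated data. Alternatives were pseudocounts of 0.1 and 8, no filter or a minimum of 50, equal totals, quantile scaling, a replicate block, other gaps, each library left out, and edgeR 4.0.16 on recovered reads of 14 libraries; the 2 left out have steps too near 1. Added after the data were seen were the loss of both shallow libraries together, the same filter on low values for the sharing rule, and the NF-kB motif.

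For each direction the named genes are those of at least 100 in both higher-side groups with the 15 largest gaps, up to 5 per list by gap, the 6 largest differences each way of MLCs against SMCs and of APCs against FIPs, the 3 on each side of the limit, and Cd9, Pdgfrb, Pdgfra, Msln and Acta2; marker genes and others given for a list count are outside it. A few genes are not reported here. The genes and the 37 lists were chosen with earlier results of these data known. Promoters and coordinates are RefSeq's on GRCm38.p6.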

Additional observations from a re-analysis of the deposited data

Results flagged for a closer look

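In 18 of 284 groups of 4 libraries, taken over the 69 genes given by library or as mean ± SD and the summed mesothelial and chemokine lists, 1 library stood apart from the other 3 by Dixon's criterion, which chance meets in about 1 of 20 groups. APCs replicate 4, a shallow library, gave 5 of them, each as the highest of APCs: Acta2 at 2388, Aldh1a2 at 221, Gas6 at 2345, Tpm2 at 889 and Crim1 at 600.03. APCs replicate 2 was the lowest of APCs for Plxna4 at 35.2 and Wnt6 at 55.4. MLCs replicate 4 was the highest MLC library for Krt8 at 6207, Cd9 at 2186 and Il6 at 104. MLCs replicate 2 was the lowest for Pkhd1l1 at 27705 and the highest for H19 at 1085, MLCs replicate 1 the highest for Ebf2 at 43.6, and MLCs replicate 3 the lowest for Ano1 at 11089. SMCs replicate 3, the other shallow library, was the highest SMC library for Pparg at 196. Among FIPs the lowest values were those of replicate 2 for Vcam1 at 2132, replicate 3 for Itga3 at 12.4 and replicate 4 for Plxna4 at 59.9. Of these, only the value of Acta2 in APCs replicate 4 kept a gene out of the shared set.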

How the results depend on the processing

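The 155 named shared genes kept their direction in all 3255 values over 21 settings, and 82 values, over 22 genes, fell under the 2-fold gap. With quantile scaling 542 genes were higher and 283 lower; with a 4-fold gap 392 and 37, with no minimum gap 1434 and 986, and 1271 were higher where overlap was allowed. Leaving out 1 library gave 835 to 933 higher and 143 to 169 lower genes, and leaving out both shallow libraries 954 and 171. Over all genes 2220 were called higher and 1082 lower (67.2% higher), with equal totals 2525 and 893 (73.9%), with quantile scaling 1748 and 1469 (54.3%); these scalings moved the median of all genes by 0.16 and -0.09 on the log2 scale. Within the higher genes, a pseudocount of 8 gave 56 called higher in APCs and 27 higher in FIPs, and edgeR 46 higher in FIPs. Of the lower genes 1 was called higher in MLCs than SMCs without SMCs replicate 3 and without both shallow libraries. The cause of these moves was not tested, except where a gap or an overlap sets the count. Leaving out 1 library gave 515 to 540 higher genes called higher in MLCs and 26 to 35 in SMCs, 88 to 92 lower genes called higher in SMCs and 0 to 1 in MLCs, 95 to 104 and 65 to 83 higher genes and 19 to 22 and 19 to 24 lower genes called higher in APCs and FIPs, and 2085 to 2253 and 1058 to 1084 calls over all genes. The replicate numbers were not treated as pairs, since the labels name no shared source and only 6 of 24 same-number pairs correlated above 0.1 (-0.03 to 0.17); 8 of 16 libraries correlated best with their own number, where 4 would with no pairing, a hint that some share a source, and the replicate block gave 2227 higher and 1082 lower calls. Low depth limits genes with few reads in the progenitors, whose gaps carry a large counting error.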
